A study of Mus musculus with 4 samples.

Results

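The genes described here are 41 mouse genes that mark or arm natural killer (NK) cells and T cells. They were taken by symbol from a list, out of 43432 genes in the count table. The list was chosen with earlier results of these data known. All 41 had a row in the table. They fall into 15 NK receptors and regulators, 7 effectors of killing and 19 T cell genes. The material was messenger RNA from 4 tumours grown under the skin of female C57BL/6 mice from the neuroblastoma line 9464D-GD2. Both groups carried the same tumour and received 25 µg dinutuximab at each of 5 treatments given 2 times per week, and the treated group also received 20 µg of small extracellular vesicles (sEVs) that the same 9464D-GD2 line had shed. There were 2 tumours per group, called biological replicates in the series design and numbered 3 and 4 in the labels. No group without dinutuximab was analysed here. 9464D is a neuroblastoma line from mice with a MYCN transgene, and its GD2 derivative displays the ganglioside that dinutuximab binds. The series title connects sEVs with resistance to such antibodies, and the comparison asks how tumours under the antibody differ when sEVs are added. Where p-values are given, they measure the spread between these 4 tumours only.

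NK cells are lymphocytes that kill target cells without prior priming and bind antibody-coated cells through Fc receptors, a process called antibody-dependent cellular cytotoxicity. Their activity follows a balance of activating and inhibitory receptors, many of which are lectin-like proteins of the Klr and Ly49 families. T cells recognise peptides on MHC molecules through a receptor that signals through CD3 chains, and CD8 T cells kill with the same perforin and granzymes as NK cells. Checkpoint receptors such as PD-1, LAG-3 and TIGIT restrain both.

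The members held few counts. Out of between 24452699 and 28187573 counts per library, the 41 genes together took 738 and 714 in dinutuximab tumours 3 and 4 and 878 and 1037 in sEV tumours 3 and 4. Only 18 members averaged at least 10 counts over the 4 libraries. A filter on low counts (filterByExpr of edgeR) kept 17 members, namely 4 NK, 4 effector and 9 T cell genes, among 13823 genes in all. Of the other 24, none had more than 40 counts in any library. Levels are in CPM, counts scaled to a common library size with TMM, on which 1 count was worth between 0.0347 and 0.0409 CPM. In bulk tumour RNA, fewer cells of a type cannot be told apart from less RNA per cell.

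The tumour line was visible through Hand2, between 145 and 172 CPM, Isl1, between 15.7 and 21.4 CPM, and Mycn, between 133 and 162 CPM, while Dbh, an enzyme of noradrenaline synthesis, had 0 counts in all libraries and Th, an enzyme of the same pathway, had 0, 3, 1 and 0. Macrophage markers were abundant, with summed levels of 1883 and 2007 CPM with dinutuximab and 2203 and 2268 CPM with sEVs over 10 genes. A list of genes taken to collect ribosomal RNA reads, Gm42418 and Lars2 among them, was also summed. Its share of counts was 5.80% and 6.06% in the dinutuximab tumours, above the 4.85% and 4.13% of the sEV tumours. Immediate early and heat shock genes summed to 814 and 732 CPM with dinutuximab and 645 and 630 CPM with sEVs. The part of these differences in the group comparisons that follow was not tested.

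Promoters of 6 members are shown first because the results turn on these genes: Cd3d, Cd3g, Cd3e and Cd8a had their highest level in sEV tumour 4 and their lowest in sEV tumour 3, while Klra4 and Tigit were highest in sEV tumour 3 and lowest in sEV tumour 4. They come from RefSeq on GRCm38.p6, where 32 of the 41 members had an entry, and run from 250 bases before the transcription start to 50 after it. Capitals mark matches on either strand to the letters AGGAAG (bound by ETS factors), CAGGTG (an E-box), TGTGGT (bound by RUNX factors) and AGATAA (bound by factors of the GATA family). The letters TATAAA, the core of the classical promoter box, were also searched and had no match in these 6.
Cd3d (chr9:44981536-44981835, plus strand): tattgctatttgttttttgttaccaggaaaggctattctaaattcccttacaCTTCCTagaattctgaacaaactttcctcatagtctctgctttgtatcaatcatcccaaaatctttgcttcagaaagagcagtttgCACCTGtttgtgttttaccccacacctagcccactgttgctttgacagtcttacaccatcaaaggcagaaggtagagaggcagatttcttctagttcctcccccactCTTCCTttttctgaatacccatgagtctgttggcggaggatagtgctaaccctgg
Cd3g (chr9:44980382-44980681, minus strand): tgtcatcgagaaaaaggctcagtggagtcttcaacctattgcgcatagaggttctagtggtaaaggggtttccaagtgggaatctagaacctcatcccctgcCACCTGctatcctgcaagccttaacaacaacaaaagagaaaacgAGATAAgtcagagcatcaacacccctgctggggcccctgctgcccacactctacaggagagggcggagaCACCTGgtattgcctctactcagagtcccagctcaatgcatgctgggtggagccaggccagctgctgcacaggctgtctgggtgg
Cd3e (chr9:45009562-45009861, minus strand): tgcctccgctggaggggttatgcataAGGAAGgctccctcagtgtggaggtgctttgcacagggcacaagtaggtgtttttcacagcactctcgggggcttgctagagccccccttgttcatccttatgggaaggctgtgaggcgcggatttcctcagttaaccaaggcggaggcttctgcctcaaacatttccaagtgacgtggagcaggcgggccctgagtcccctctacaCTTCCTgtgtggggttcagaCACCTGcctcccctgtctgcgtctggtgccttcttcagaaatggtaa
Cd8a (chr6:71373177-71373476, plus strand): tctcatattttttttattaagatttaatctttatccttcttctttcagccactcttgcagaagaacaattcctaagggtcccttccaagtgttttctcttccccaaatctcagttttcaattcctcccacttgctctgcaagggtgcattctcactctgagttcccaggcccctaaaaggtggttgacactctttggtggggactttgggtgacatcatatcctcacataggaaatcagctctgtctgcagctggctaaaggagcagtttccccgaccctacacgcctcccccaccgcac
Klra4 (chr6:130067222-130067521, minus strand): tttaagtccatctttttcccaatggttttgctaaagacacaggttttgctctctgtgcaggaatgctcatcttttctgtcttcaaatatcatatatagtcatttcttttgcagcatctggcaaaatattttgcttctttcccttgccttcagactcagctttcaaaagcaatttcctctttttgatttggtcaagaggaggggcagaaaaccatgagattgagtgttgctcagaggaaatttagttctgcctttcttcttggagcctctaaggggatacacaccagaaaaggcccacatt
Tigit (chr16:43664135-43664434, minus strand): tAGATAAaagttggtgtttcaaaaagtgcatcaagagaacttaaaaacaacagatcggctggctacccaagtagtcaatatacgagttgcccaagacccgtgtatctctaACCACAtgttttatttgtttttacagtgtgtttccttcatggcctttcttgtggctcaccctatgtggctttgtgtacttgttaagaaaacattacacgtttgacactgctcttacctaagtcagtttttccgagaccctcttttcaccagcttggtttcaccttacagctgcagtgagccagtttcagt

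The 3 CD3 promoters each held at least 1 E-box, and the Cd3d and Cd3e promoters each held 2 ETS motifs. None of the 5 motifs stood in the Klra4 or Cd8a window, and the Tigit window held 1 RUNX and 1 GATA motif. Among the 32 member promoters, 46.9% held the ETS letters and 34.4% the E-box letters, against 35.4% and 20.2% of 32817 RefSeq promoters of the same length. The RUNX letters stood in 34.4% of member promoters and 16.8% of all, the GATA letters in 6.25% and 11.2%, and the letters TATAAA in 18.8% and 13.6%. A match describes the letters and does not show that a factor binds there.

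Of the 15 NK members, 8 lie together on GRCm38. They run from Klrb1c to Klra7, at 128778485 to 130233322 on chromosome 6, in the NK gene complex, and Klra4 (ENSMUSG00000079852) spans 130043731 to 130067271 on its minus strand. Cd3g, Cd3d and Cd3e stand side by side on chromosome 9, from 44969572 to 45009627. All 41 members are annotated as protein-coding in GENCODE M21.

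No member differed between the groups by the test. In the edgeR quasi-likelihood fit over 13823 genes with Benjamini-Hochberg adjustment, 0 of the 17 tested members were higher and 0 lower, against a background of 0% called higher and 0% called lower among all genes. The lowest adjusted p of a member was 0.885, and 0 members had an unadjusted p under 0.05, where 5.57% of all genes did. This count depends on the filter. Without it, 4 of the 41 members had an unadjusted edgeR p under 0.05, Prf1 lower and Nkg7, Gzmk and Cd8b1 higher, as did 1394 of 22003 genes. The lowest adjusted p of a member in that fit was 0.295. DESeq2 called 0 members, where it called 0.123% of all genes higher and 0.275% lower, but it gave an adjusted p to only 9 of the 17 members, the other 8 being set aside for their low counts, and limma-voom called 0 members. At an unadjusted p under 0.05 DESeq2 and limma-voom had 0 members each, and 4.77% and 5.38% of all genes. Of the tested members 13 had positive and 4 negative log2 fold changes, with a median of 0.26 against 0.0015 over all genes tested. The filter needs counts in at least 2 libraries, so these 17 are not a sample of all 41. The spread inside groups was wide: the biological coefficient of variation fitted for the tested members ran from 0.210 to 0.599 with a median of 0.362, and the median over all tested genes was 0.136.

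**Figure D1:**
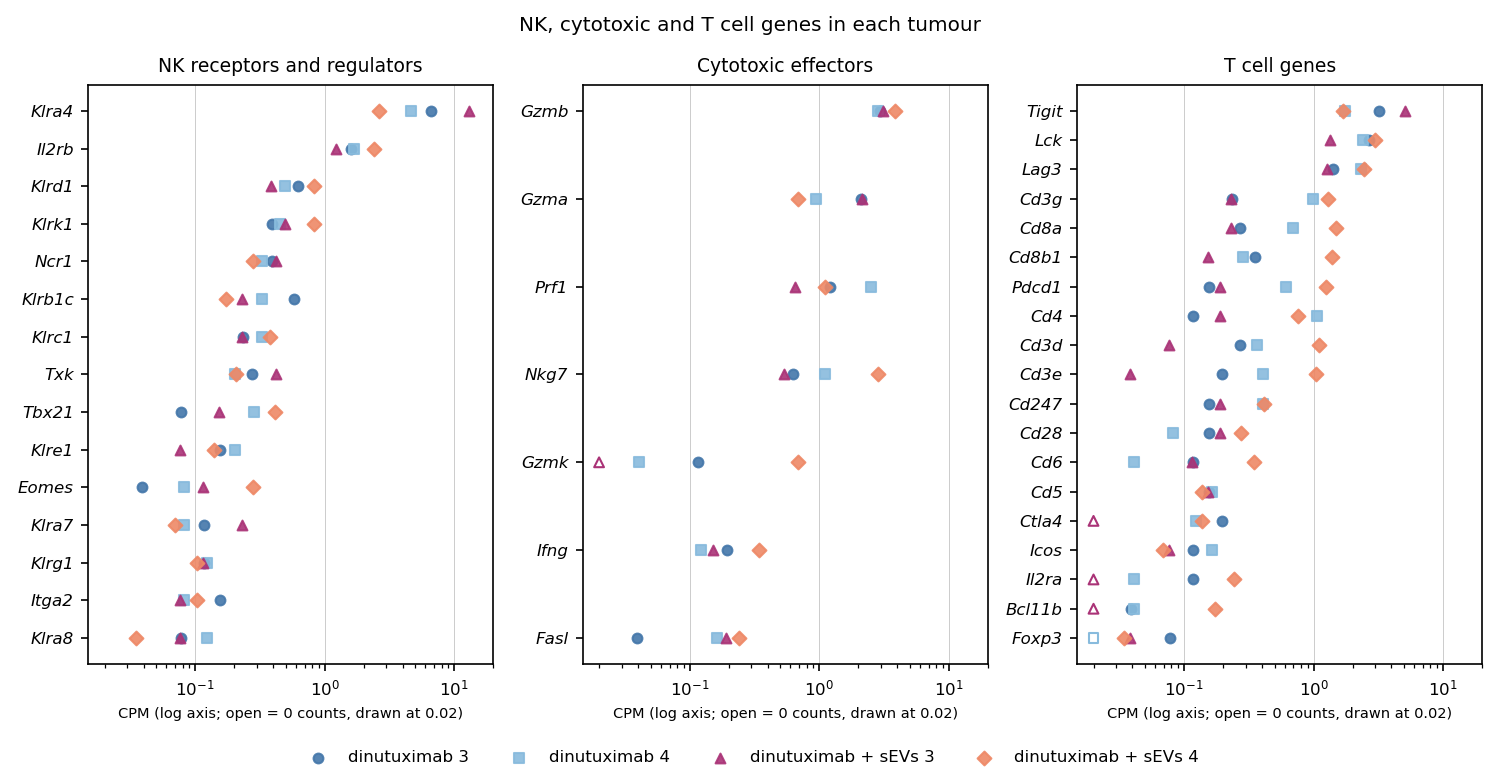
Levels of all 41 members in each tumour, as CPM on a log axis, with 1 marker per tumour, genes ordered by total count within each of the 3 classes, and open markers for 0 counts. The sEV 4 marker is furthest right for 13 of the 19 T cell genes and the sEV 3 marker furthest left for 10 of them, while Klra4 and Tigit have sEV 3 on the right and sEV 4 on the left; 0 counts are drawn at 0.02 CPM.

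Among NK receptors, Klra4 had the most counts in each tumour, though in sEV tumour 4 its 76 counts were close to the 69 of Il2rb. Klra4 encodes Ly49D, an activating Ly49 receptor of C57BL/6 NK cells, and its level was 6.66 and 4.67 CPM with dinutuximab and 12.9 and 2.63 CPM in sEV tumours 3 and 4. The 2 sEV tumours were thus the highest and the lowest of the 4, and the dinutuximab tumours lay between them. The log2 fold change was 0.45 ± 0.59 (SE; edgeR adjusted p = 0.947). With limma-voom it was 0.029. Without sEV tumour 4 it was 1.19, and without sEV tumour 3 it was -1.11, each from a fit with 1 sEV tumour left.

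Per kilobase of exon, Klra4 had the highest mean level of all 41 members, at 5.40 CPM per kb, followed by Tigit at 3.19 and Gzmb at 2.23 CPM per kb. It led in 3 tumours but not in sEV tumour 4, where its 2.12 CPM per kb was below the 3.11 of Nkg7 and the 2.68 of Gzmb. Ncr1, which encodes the defining NK receptor NKp46, had 0.230 CPM per kb. Its counts were 10 and 8 with dinutuximab and 11 and 8 with sEVs, and the groups overlapped. The other Ly49 members were near the detection limit: Klra7 (Ly49G) had between 2 and 6 counts and Klra8 (Ly49H) between 1 and 3. Ly49 genes resemble one another, and 4.68% of the 50-base stretches of Klra4 transcripts also occur in another gene, against 12.3% for Klra7 and 33.1% for Klra8, so that counts of Klra8 are uncertain. Klrc1 (NKG2A), an inhibitory receptor with between 6 and 11 counts, shares 38.6% with other genes.

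The activating receptor gene Klrk1 (NKG2D) had 0.390 and 0.450 CPM with dinutuximab and 0.497 and 0.832 CPM with sEVs. Its groups did not overlap, and its log2 fold change was 0.66 ± 0.50 (SE; edgeR adjusted p = 0.909). Klrd1 (CD94), the partner chain of NKG2A but not of NKG2D, had 0.624 and 0.491 CPM with dinutuximab and 0.382 and 0.832 CPM with sEVs. Il2rb, the receptor chain shared by interleukins 2 and 15, had 1.60 and 1.68 CPM with dinutuximab and 1.22 and 2.39 CPM with sEVs. In both genes the sEV tumours enclosed the dinutuximab tumours, with sEV tumour 4 the highest.

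The remaining NK members gave few counts in any library. Klrb1c, which encodes the NK1.1 antigen of C57BL/6 NK cells, had 15 and 8 counts with dinutuximab and 6 and 5 with sEVs. Of its 50-base stretches 17.0% also occur in other genes, and 413 bases of its exons overlap the gene model Gm44511, which had no row in the count table. The T-box factor genes Eomes and Tbx21, which direct NK and effector T cell programmes, had few counts too: Eomes had 1 and 2 with dinutuximab and 3 and 8 with sEVs, and Tbx21 had 2 and 7 with dinutuximab and 4 and 12 with sEVs. Klre1, Klrg1, Itga2 and Txk had between 2 and 11 counts. At such levels a difference between the groups was not detectable.

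Summed over the 15 NK genes, the tumours held 11.5 and 9.46 CPM with dinutuximab and 17.2 and 8.87 CPM with sEVs, or 10.5 ± 1.44 against 13.0 ± 5.88 CPM (SD, n = 2). sEV tumour 3 was 1.94-fold above sEV tumour 4 (95% exact interval 1.66 to 2.27, counting error only), which exceeds the 1.24-fold ratio of the group means. Klra4 supplied 75.3% of this sum in sEV tumour 3 and 29.7% in sEV tumour 4. Without Klra4 the order turned: the other 14 genes summed to 4.83 and 4.79 CPM with dinutuximab, 4.24 CPM in sEV tumour 3 and 6.24 CPM in sEV tumour 4. The ratio of the group means was then 1.09-fold.

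**Figure D2:**
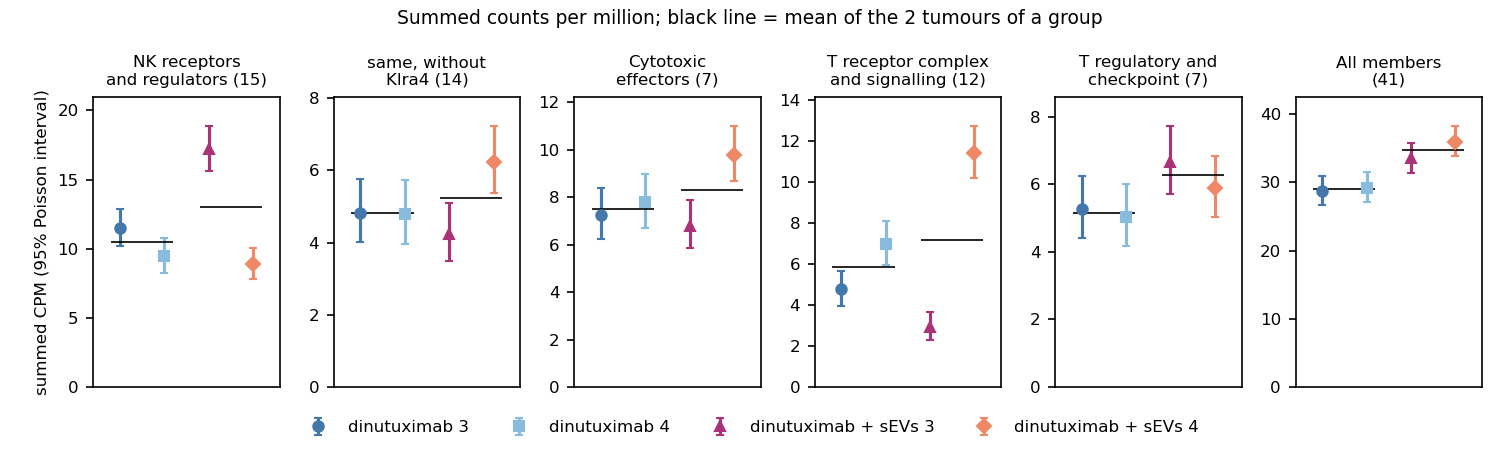
Summed CPM of member classes in each tumour, with 95% Poisson intervals that cover counting error only and a black line at the mean of each group; each panel has its own axis from 0. The sEV tumours lie on opposite sides of the dinutuximab tumours for the NK sum, with sEV 3 on top, and for the T receptor complex sum, with sEV 4 on top, while the sums over all 41 members were 28.8, 29.2, 33.5 and 35.9 CPM.

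Perforin and granzymes carry out killing: perforin opens the target membrane and granzymes are proteases that enter through it. Prf1 had 1.21 and 2.54 CPM with dinutuximab and 0.649 and 1.11 CPM with sEVs. It was the only tested member whose groups separated with lower values in the sEV tumours, at a log2 fold change of -1.08 ± 0.48 (SE; edgeR unadjusted p = 0.0528, adjusted p = 0.885). With 1 library left out the fold change lay between -1.52 and -0.45. Since the groups did not overlap, leaving out a library could hardly change its sign, and the constant sign is no further evidence. Among all genes tested, 34.6% had groups that did not overlap, and among the 17 members 3 did, Prf1, Klrk1 and Gzmb.

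Gzmb, the granzyme with aspartate-directed cleavage, had 2.96 and 2.87 CPM with dinutuximab and 3.13 and 3.85 CPM with sEVs. It had the lowest fitted variation of the tested members, and a log2 fold change of 0.26 ± 0.29 (SE; edgeR adjusted p = 0.943). Gzma, a tryptase-like granzyme, split by tumour number instead, with 2.10 and 2.14 CPM in the tumours numbered 3 of the dinutuximab and sEV groups and 0.942 and 0.693 CPM in those numbered 4. Its log2 fold change between groups was -0.12 ± 0.58 (SE; edgeR adjusted p = 0.990).

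Nkg7, a granule membrane protein of cytotoxic lymphocytes, had 0.624 and 1.11 CPM with dinutuximab and 0.535 and 2.84 CPM with sEVs. sEV tumour 4 was 5.31-fold above sEV tumour 3 (95% exact interval 2.99 to 10.1), and the other 3 tumours lay within 0.535 to 1.11 CPM. Its log2 fold change of 0.98 ± 0.70 (SE; edgeR adjusted p = 0.909) was the largest positive value of a tested member, and it was -0.68 without sEV tumour 4. Gzmk, a granzyme of memory-type CD8 T cells, showed the same tumour apart, with 3 and 1 counts with dinutuximab and 0 and 20 with sEVs. Fasl, a death ligand, had between 1 and 7 counts, and Ifng, the interferon gamma gene, had between 3 and 10.

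The 7 effector genes summed to 7.25 and 7.78 CPM with dinutuximab and 6.80 and 9.77 CPM with sEVs. The sEV tumours again enclosed the dinutuximab tumours, and the ratio of the group means was 1.10-fold against a 1.44-fold difference between the sEV tumours (95% exact interval 1.19 to 1.74). Without sEV tumour 4 the log2 ratio of the group means changed sign, from 0.14 to -0.14.

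Genes of the T cell receptor complex divided the 2 sEV tumours. The CD3 chains carry the signal of the T cell receptor, and Cd3e had 0.195 and 0.409 CPM with dinutuximab and 0.0382 and 1.04 CPM with sEVs. In counts this was 1 in sEV tumour 3 and 30 in sEV tumour 4, a ratio of 27.2 (95% exact interval 4.53 to 1111). Cd3d had 7 and 9 counts with dinutuximab and 2 and 32 with sEVs, while Cd3g had 6 and 24 with dinutuximab and 6 and 37 with sEVs. All 3 genes were highest in sEV tumour 4, and their few counts in sEV tumour 3 were the lowest of the 4 libraries in CPM.

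The co-receptor genes of CD8 T cells were also highest in sEV tumour 4. Cd8a had 0.273 and 0.696 CPM with dinutuximab and 0.229 and 1.49 CPM with sEVs, with a log2 fold change of 0.85 ± 0.80 (SE; edgeR adjusted p = 0.926) that was -1.06 without sEV tumour 4. Cd8b1, which unlike Cd8a is little used outside T cells, had 9 and 7 counts with dinutuximab and 4 and 40 with sEVs. Cd4, the co-receptor of helper T cells, was high in both tumours numbered 4: it had 0.117 and 1.06 CPM with dinutuximab and 0.191 and 0.763 CPM with sEVs. Its log2 fold change was -0.27 ± 0.90 (SE; edgeR adjusted p = 0.980).

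Lck, the kinase that starts signalling from CD4 and CD8, was less uneven, at 2.69 and 2.42 CPM with dinutuximab and 1.34 and 2.98 CPM with sEVs. sEV tumour 3 stood below the other 3, which lay within 2.42 to 2.98 CPM. Cd247, the zeta chain, had 0.156 and 0.409 CPM with dinutuximab and 0.191 and 0.416 CPM with sEVs, and 3007 bases of its exons overlap Pou2f1 on the opposite strand, so its counts are uncertain. The scavenger-type receptor gene Cd5 had 4 counts in every library, Cd6 had between 1 and 10, the co-stimulator Cd28 between 2 and 8 and the T lineage factor Bcl11b between 0 and 5.

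Summed over the 12 genes of the receptor complex and its signalling, the tumours held 4.75 and 6.96 CPM with dinutuximab and 2.90 and 11.4 CPM with sEVs. sEV tumour 4 was 3.93-fold above sEV tumour 3 (95% exact interval 3.05 to 5.11), and dinutuximab tumour 4 was 1.46-fold above dinutuximab tumour 3 (1.15 to 1.86). The group means of 5.86 ± 1.56 and 7.15 ± 6.01 CPM (SD, n = 2) differed by 1.22-fold, less than the spread inside either group. Over all 19 T cell genes sEV tumour 4 was 1.81-fold above sEV tumour 3 (95% exact interval 1.55 to 2.12). The ratio of the group means was also 1.22-fold there, and without sEV tumour 4 the log2 ratio turned from 0.29 to -0.20. In the 6 genes least shared with other cell types (Cd3d, Cd3e, Cd3g, Cd8b1, Cd5 and Cd6) sEV tumour 4 was 6.94-fold above sEV tumour 3 (95% exact interval 4.34 to 11.7).

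Among regulatory and checkpoint genes, Pdcd1 and Tigit moved in opposite ways between the sEV tumours. Pdcd1 (PD-1) had 0.156 and 0.614 CPM with dinutuximab and 0.191 and 1.25 CPM with sEVs, high in both tumours numbered 4. Tigit had 3.20 and 1.76 CPM with dinutuximab and 5.08 and 1.70 CPM with sEVs, high in both tumours numbered 3. Its level in sEV tumour 3 was 2.99-fold that of sEV tumour 4 (95% exact interval 2.14 to 4.24), and its log2 fold change between groups was 0.44 ± 0.52 (SE; edgeR adjusted p = 0.944).

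Lag3 had 1.40 and 2.33 CPM with dinutuximab and 1.26 and 2.46 CPM with sEVs, and its log2 fold change of 0.0010 ± 0.43 (SE; edgeR adjusted p = 0.9998) was the closest to 0 of all tested members. Foxp3, the factor of regulatory T cells, had between 0 and 2 counts, and its exons overlap 4 other gene models. Ctla4 had between 0 and 5 counts, the activation marker Il2ra (CD25) between 0 and 7 and Icos between 2 and 4. The 7 regulatory and checkpoint genes summed to 5.26 and 5.04 CPM with dinutuximab and 6.65 and 5.89 CPM with sEVs, so that the groups did not overlap. For single genes, 34.6% of all tested had groups that did not overlap. Tigit supplied 51.0% of these counts, and without it, an option chosen after its values were seen, the sums were 2.07 and 3.28 CPM with dinutuximab and 1.57 and 4.19 CPM with sEVs.

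**Figure D3:**
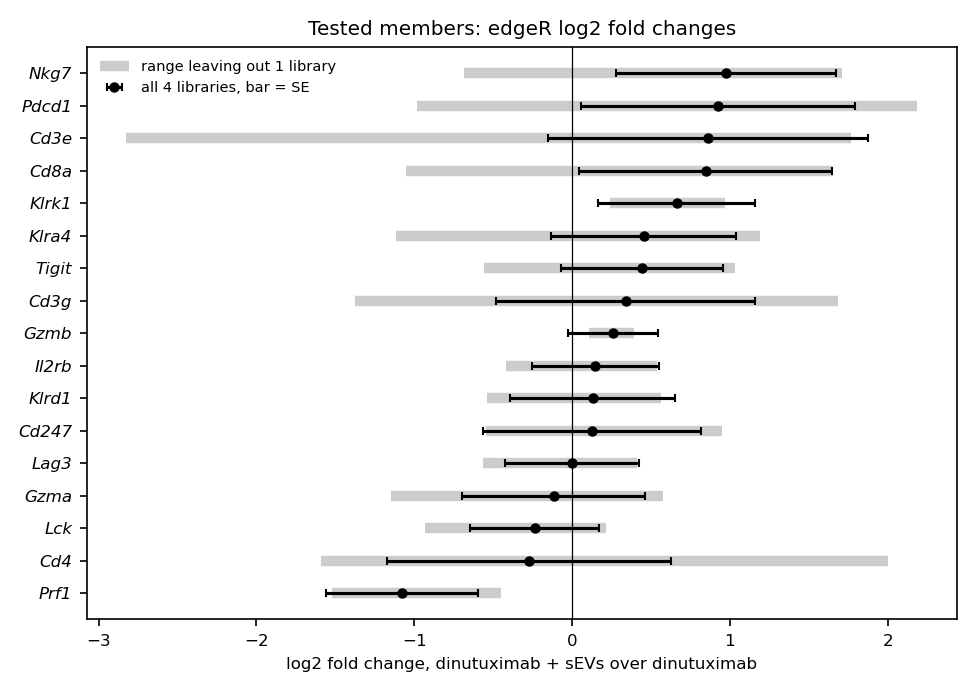
Log2 fold changes of the 17 tested members (black points, bars of 1 SE, edgeR), sEV over dinutuximab tumours, with grey bands spanning the values when 1 of the 4 libraries was left out. The bands of Klrk1, Gzmb and Prf1 stay on 1 side of 0 and the other 14 cross it. Klrk1, Gzmb and Prf1 are the tested members whose groups did not overlap, so leaving out 1 library could hardly change their sign.

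Considered over tumours rather than groups, 2 opposed orders recurred among the members, while 22 of the 41, and 6 of the 17 tested, had neither. For 14 of the 41, including Cd3d, Cd3e, Cd3g, Cd8a, Cd8b1, Lck, Lag3, Nkg7, Gzmk, Il2rb and Klrd1, sEV tumour 4 was the highest and sEV tumour 3 the lowest of the 4. Among the 17 tested members 8 had this order, and 6.98% of all tested genes did. sEV tumour 3 was the lowest in 9 of the 17, and in 28.6% of all tested genes. At least a 2-fold excess of sEV tumour 4 over sEV tumour 3 was found in 9 of the 17, and in 2.9% of all tested genes. Of these 9 genes 6 (Cd3e, Cd3g, Cd247, Cd4, Cd8a and Pdcd1) had fewer than 10 counts in both tumours numbered 3 and passed the filter through those numbered 4, so that the filter favoured this direction, and 3 of the other 11 tested members had the excess. Genes with few counts also scatter more by counting error alone, so the members' counts are descriptions and are not directly comparable with the shares of all genes.

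The reverse order, from sEV tumour 3 through dinutuximab tumours 3 and 4 down to sEV tumour 4, was shared by 5 members: Klra4, Tigit, Gzma, Klra7 and Ncr1. Of the 17 tested members 3 had it, against 3.53% of all tested genes. The same 3, Klra4, Tigit and Gzma, were the tested members highest in sEV tumour 3 (28.9% of all tested genes) and at least 2-fold above sEV tumour 4 there (2.47% of all tested genes), and Klra7 and Ncr1 rest on at most 11 counts in a library. In the dinutuximab group, tumour 4 exceeded tumour 3 in 22 of all 41 members. The sum over all 41 genes hardly showed these opposed orders, since sEV tumour 4 was 1.07-fold above sEV tumour 3 (95% exact interval 0.979 to 1.17). The group means of this sum were 29.0 ± 0.335 and 34.7 ± 1.70 CPM (SD, n = 2), a 1.20-fold ratio without overlap. Of all single genes tested, 34.6% had groups that did not overlap. Without Klra4 the groups overlapped, with 22.1 and 24.6 CPM in the dinutuximab tumours and 20.6 and 33.3 CPM in the sEV tumours.

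**Figure D4:**
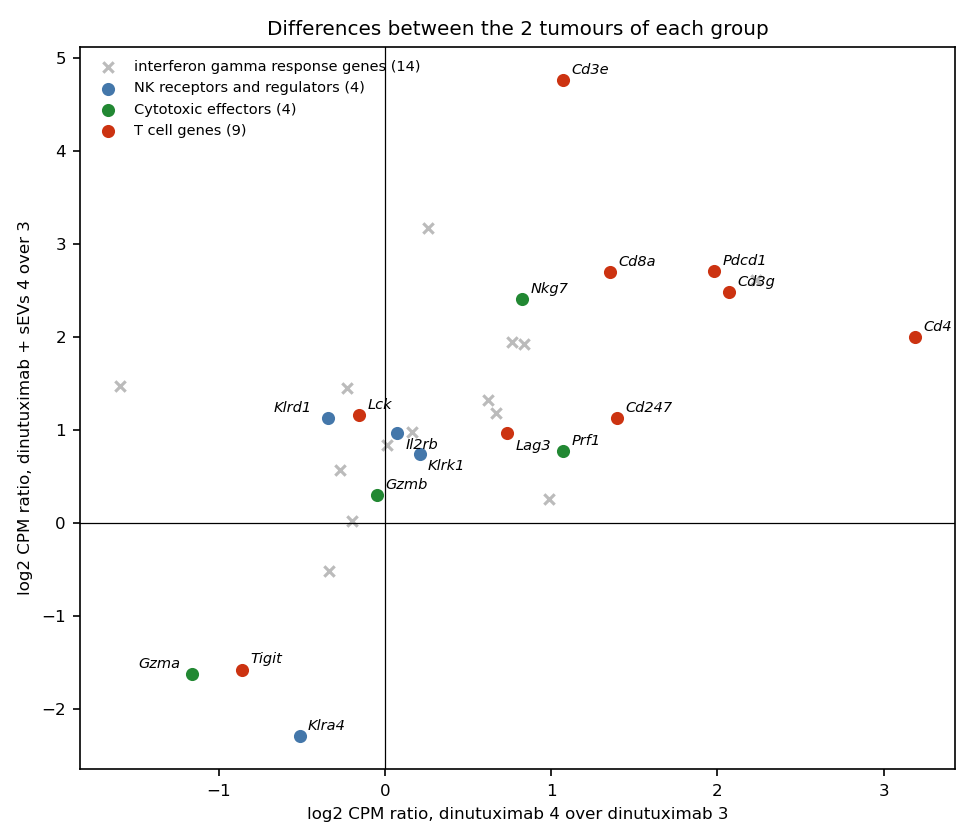
Log2 CPM ratio of tumour 4 to tumour 3 within the sEV group (vertical) against the same ratio within the dinutuximab group (horizontal), for the 17 tested members by class and for 14 interferon gamma response genes (crosses). Klra4, Tigit and Gzma lie below 0 on both axes, and the other 14 members lie above 0 on the vertical axis.

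Further genes of the same lineages were read from a list of 51 symbols, of which 49 were in the table and 24 passed the filter. None was called (0 higher, 0 lower). Of the 49 genes 21 were highest in sEV tumour 4, and of the 24 tested 13 were, where 19.2% of all tested genes were. Among these 13, Klra3, Cd2, Trbc1 and Cxcr6 had fewer than 10 counts in both tumours numbered 3. They passed the filter through the tumours numbered 4, as did Zap70 and Lat, which were highest in dinutuximab tumour 4. The filter thus favoured tumours numbered 4, and the 13 are not directly comparable with the share of all genes. Ccl5, a chemokine made by cytotoxic lymphocytes, had 2.10 and 2.25 CPM with dinutuximab and 2.75 and 6.59 CPM with sEVs, with a log2 fold change of 1.10 ± 0.42 (SE; edgeR adjusted p = 0.833). The T cell receptor constant genes Trbc1 and Trbc2, chosen after their values were seen, were highest in sEV tumour 4: Trbc1 had 7 and 14 counts with dinutuximab and 8 and 37 with sEVs, and Trbc2 had 16 and 17 with dinutuximab and 9 and 40 with sEVs. Other genes of the list did not follow this order. Thy1, a surface protein of T cells that neurons also carry, had 8.26 and 10.5 CPM with dinutuximab and 6.38 and 5.03 CPM with sEVs, lowest in sEV tumour 4 (log2 fold change -0.72 ± 0.24, SE; edgeR adjusted p = 0.751). Lat, an adaptor of the T cell receptor, had 0.273 and 5.00 CPM with dinutuximab and 0.306 and 0.936 CPM with sEVs, and Gata3, a factor of T cells and of sympathetic neurons, had 2.57 and 2.17 CPM with dinutuximab and 1.76 and 1.28 CPM with sEVs. Cd244a and Gzmc, also chosen after their values were seen, were instead highest in sEV tumour 3, at 4.55 and 3.17 CPM, with 1.77 and 1.21 CPM in sEV tumour 4. Cd244a encodes the NK receptor 2B4, and Gzmc another granzyme.

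Interferon gamma is a product of both lineages, though Ifng itself had only between 3 and 10 counts. Of 14 tested response genes, 12 were highest in sEV tumour 4, where 19.2% of all tested genes were. The test called 0 of them higher or lower, with a median log2 fold change of 0.41. sEV tumour 4 also had the most T cell receptor counts, and a link between these observations was not tested. Cxcl9, a chemokine that attracts T and NK cells through CXCR3, had 10.3 and 12.2 CPM with dinutuximab and 5.00 and 45.2 CPM with sEVs, a 9.03-fold difference between the sEV tumours. Gbp7, an interferon-induced GTPase, had 2.96 and 4.71 CPM with dinutuximab and 3.63 and 8.21 CPM with sEVs. Irf1 was flat, between 79.6 and 91.4 CPM.

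MHC class I presentation supplies the ligands of CD8 T cells and of inhibitory NK receptors. Of 11 tested genes of this pathway, 8 were highest in sEV tumour 4, where 19.2% of all tested genes were, and 0 were called. B2m, the light chain of class I molecules, had 637 and 670 CPM with dinutuximab and 668 and 928 CPM with sEVs, and H2-D1, a heavy chain, had 231 and 309 CPM with dinutuximab and 244 and 362 CPM with sEVs.

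Chemokines that recruit these cells and the cytokines that sustain them were not called either (0 of 9 and 0 of 10 tested genes). Ccl3, an inflammatory chemokine, had 6.35 and 2.87 CPM with dinutuximab and 2.33 and 2.01 CPM with sEVs, and Cxcl12, the ligand of CXCR4, had 5.65 and 2.99 CPM with dinutuximab and 2.71 and 1.21 CPM with sEVs. Both had groups that did not overlap, at log2 fold changes of -1.09 ± 0.40 and -1.14 ± 0.45 (SE; edgeR adjusted p = 0.804 and 0.849). Of the 9 tested chemokines 3 were lower and 2 higher with sEVs without overlap, and of the 10 tested cytokines 2 were lower and 2 higher. Among all tested genes 34.6% had groups that did not overlap. Il15, the survival cytokine of NK cells, had 1.56 and 1.88 CPM with dinutuximab and 2.25 and 3.15 CPM with sEVs (log2 fold change 0.65 ± 0.34, SE; edgeR adjusted p = 0.887).

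Ligands that NK and T cell receptors read on other cells had a median log2 fold change of 0.23 over 15 tested genes, and 0 were called. Pvr and Nectin2, ligands of TIGIT, had between 45.1 and 56.9 CPM and between 36.6 and 47.6 CPM. Icosl, the ligand of ICOS, had 7.76 and 9.58 CPM with dinutuximab and 14.1 and 12.2 CPM with sEVs (log2 fold change 0.60 ± 0.20, SE; edgeR adjusted p = 0.763). The Fc receptor gene Fcgr3, through which mouse NK cells and macrophages bind IgG, had 106 and 123 CPM with dinutuximab and 125 and 132 CPM with sEVs. These levels were far above those of the NK members, and macrophages express the gene too.

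Markers of other leukocytes were compared with the same tumours. B cell markers summed to 5.22 and 7.82 CPM with dinutuximab and 4.74 and 9.70 CPM with sEVs over 8 genes. Cd22 led this sum, at 3.23 and 5.61 CPM with dinutuximab and 2.10 and 6.65 CPM with sEVs, and the other 7 genes summed to 1.99 and 2.21 CPM with dinutuximab and 2.64 and 3.05 CPM with sEVs, so that only Cd22 placed the B cell sum lowest in sEV tumour 3. Dendritic cell markers summed to 3.23 and 6.92 CPM with dinutuximab and 3.78 and 4.99 CPM with sEVs over 8 genes, of which Siglech had 0 counts throughout. Neutrophil markers (7 genes, Ly6g at 0 counts) summed to between 3.16 and 6.13 CPM, and mast cell and basophil markers (7 genes, Ms4a2 at 0 counts) to between 1.46 and 4.67 CPM. Platelet markers (5 genes, Gp1ba at 0 counts) summed to 51.1 and 42.4 CPM with dinutuximab and 78.7 and 53.9 CPM with sEVs. Nearly all of this was Pf4, at 49.8 and 41.3 CPM with dinutuximab and 76.4 and 52.6 CPM with sEVs. Ppbp had only between 0.390 and 0.649 CPM, so the sum describes 1 gene rather than platelets. It was highest in sEV tumour 3, but unlike Klra4 it was not lowest in sEV tumour 4. Epithelial markers summed to 3.06 CPM in sEV tumour 3, where Krt5 and Krt14 had 15 and 22 counts against 0 in the other libraries, and to between 0.659 and 1.33 CPM elsewhere. The part of these cell types in the member values was not tested.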

How the data were processed

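Messenger RNA of 4 tumours was measured, 2 per group. What the authors deposited are whole-number counts for each Ensembl gene; the table of the series and the tables per sample held the same 173728 values. Alignment and counting tools were HTSeq, STAR and SAMtools on mm10, per the submitters' processing notes; their versions, the annotation and the counting mode are not given in the sources used here, while the labels' protocols state a stranded library kit. GENCODE M21 (GRCm38, the assembly of mm10) named 42548 IDs.

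Counts were filtered with filterByExpr, scaled by TMM (factors 0.976 to 1.02) and tested with the quasi-likelihood test of edgeR 4.0.16 in R 4.3.3, group as the only term, Benjamini-Hochberg threshold 0.05 over 13823 genes. SE is the log2 fold change divided by the root of F. DESeq2 1.42.0, limma 3.58.1 and other scalings, filters and left-out libraries were alternatives. Sums over members have no test: an exact two-sided permutation test of 2 against 2 could not go below p = 0.333. Intervals are exact Poisson or conditional binomial and cover counting error only. The edgeR fit was tested on simulated data.

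Members and lists were chosen with earlier results of these data known. All members were to be named, with values from a mean of 10 counts, and per other list at most 3 genes of lowest p and 2 of highest CPM; others named were chosen after their values were seen. Some genes of these lists are not reported here.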

Additional observations from a re-analysis of the deposited data

How the results depend on the processing

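No alternative that kept all 4 libraries called a tested member. Fits that left out 1 library had 1 tumour in a group, which then gave no estimate of its own spread. For members only the effect sizes of those fits are given. Over all genes, 0 were higher and 0 lower with all libraries; DESeq2, which gave 8 of the 17 members no adjusted p, called 17 and 38, and the fit without a filter on low counts 107 and 155. Leaving out 1 library gave between 0 and 160 higher and between 0 and 156 lower, with 48 and 84 without sEV replicate 3 and 160 and 156 without sEV replicate 4. With the tumour number as a replicate block the fit called 21 higher and 46 lower and 0 members. The labels do not say what the numbers 3 and 4 mean. The correlation over genes of the 3-minus-4 differences of both groups was 0.0659. A single correlation over all genes cannot decide whether tumours of the same number share something, and no pairing was assumed. Leaving out 1 library moved the log2 ratio of summed counts between -0.24 and 0.71 for NK genes (0.31 with all), between -0.14 and 0.38 for effectors (0.14) and between -0.20 and 0.65 for T cell genes (0.29), with the negative ends without sEV replicate 3 for NK genes and without sEV replicate 4 for the other 2. Restricted to the 6 strict T cell genes the log2 ratio was 0.76, and without Tigit, Lck and Lag3, chosen after seeing the data, 0.55. Of the 17 tested members 14 changed sign under some alternative, 10 of them without sEV replicate 4. Leaving out 1 library moved the log2 fold change of Cd3e between -2.82 and 1.77, Cd3g between -1.38 and 1.69, Cd4 between -1.59 and 2.001, Cd8a between -1.06 and 1.65, Cd247 between -0.54 and 0.95, Pdcd1 between -0.98 and 2.19, Lck between -0.93 and 0.21, Lag3 between -0.56 and 0.41, Tigit between -0.56 and 1.03, Nkg7 between -0.68 and 1.71, Gzma between -1.14 and 0.58, Klra4 between -1.11 and 1.19, Klrd1 between -0.54 and 0.56 and Il2rb between -0.42 and 0.54. With limma-voom Cd3e was at -0.25 and Cd4 at 0.12, and Lag3, close to 0, was at -0.0082 with DESeq2, -0.020 with limma-voom, -0.0050 with RLE scaling, -0.0039 without the filter, -0.0071 with the 1 CPM filter and -0.031 with the replicate block. The cause of these changes was not tested.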
